A study of Mus musculus with 9 samples.

Results

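C2C12 myotubes that expressed PGC-1α with the C-terminal domain deleted (dCTD) were compared with myotubes that expressed the full-length protein (FL), 3 libraries against 3, out of 9 RNA-seq libraries in the series. The other 3 libraries came from myotubes given LacZ, a bacterial enzyme that serves as the control transgene. C2C12 is a mouse myoblast line whose cells fuse into multinucleated muscle fibres in low-serum medium. All cells had differentiated for 4 days, received an HA-Flag-tagged dCTD or FL construct or LacZ by adenovirus at a multiplicity of infection of 3 for 4 h, and were harvested at 48 h. The labels name no other genetic change, the cells still contain their own Ppargc1a gene, and the residues removed in dCTD are not given in the sources used here. The cells of all libraries come from 1 line, and the series text calls the 3 libraries of a group biological replicates. Reads were recovered from the deposited normalized values, the 9 libraries were put on 1 scale, and 18155 of 55421 genes had a mean of at least 10 normalized counts and were tested. Depth was 87090490 to 110673140 reads per library with dCTD, 99906750 to 123446198 with FL and 110309704 to 118931863 with LacZ, and 0 reads were counted on the 37 mitochondrially encoded genes, which are therefore not described.

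PGC-1α does not bind DNA itself. It docks on transcription factors such as the estrogen-related receptors, the PPARs and NRF1, recruits histone acetyltransferases through its N-terminal activation domain, and in muscle is best known for raising the genes of mitochondrial respiration and fat oxidation after exercise. Its C-terminal part holds a stretch rich in arginine and serine and an RNA recognition motif, features otherwise typical of splicing factors, and has been linked to Mediator and to the complex that binds the cap of nascent mRNAs. Comparing dCTD with FL asks which parts of the response need that end of the protein.

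Both transgenes were expressed far above the gene's own level. Ppargc1a (chr5:51454250-51567726, minus strand) had 100543, 121631 and 116095 normalized counts in the dCTD libraries, 227297, 198071 and 209100 in the FL libraries and 408, 383 and 399.7 in the LacZ libraries. The dCTD libraries lay below all FL libraries, and the log2 difference, dCTD minus FL, was -0.91 ± 0.07 (± standard error, as in all differences below; limma, adjusted p = 1.74e-07), so that FL libraries held 1.88 times as much as dCTD libraries. The dCTD construct lacks part of the coding sequence, so these values count reads over stretches of unequal length. The part of the transgene level in the differences below was not tested. Standard errors and p-values of these differences come from 1 fit of all 9 libraries, in which the 3 groups share 1 spread per gene. All 17 myotube markers were measured, and their summed level was 1630771 to 1738823 normalized counts in the dCTD libraries, 1633730 to 1683616 in the FL libraries and 2202763 to 2287829 in the LacZ libraries. The like sums of the 2 forms hide differences of single markers. With dCTD 11 were higher than with FL and 2 lower, with a median of 0.30, and the abundant Des was lower (means of 257748 with dCTD and 411019 with FL).

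dCTD and FL gave widely different transcriptomes, and the strongest differences were losses with dCTD. Of 18155 genes, 3887 were lower with dCTD than with FL (21.4%) and 3172 were higher (17.5%) at an adjusted p under 0.05 (limma on log2(normalized count + 1), Benjamini-Hochberg over all genes). Most of these differences were small, with a median size of 0.30 on the log2 scale among the 7059 genes called. Past a 2-fold difference the sides were unequal, with 589 genes lower (3.24%) and 250 higher (1.38%). When libraries were instead scaled by their total reads without Ppargc1a, the median of all genes moved to 0.07 and the higher genes made up 63.8% of the calls, against 44.9% on the main scale, so the split between small rises and small falls depends on the scaling. The mitochondrial, fatty acid oxidation, aminotransferase, interferon, integrated stress and replication lists kept more lower than higher calls and a negative median with TMM, with total reads and with the values as deposited, and the sarcomere and calcium lists kept more higher calls and a positive median. For lists nearer to balance the split is given with total reads too where it turns round. All list counts between the forms are to be read beside the shares of all genes, 21.4% lower, 17.5% higher and 38.9% called. For comparison, 59.1% of genes differed between FL and LacZ and 45.6% between dCTD and LacZ. Past 2-fold, 861 genes were higher (4.74%) and 453 lower (2.50%) with dCTD than with LacZ, and 1565 higher (8.62%) and 779 lower (4.29%) with FL than with LacZ. These comparisons share libraries with the one between the forms, so values against LacZ are given side by side and not as separate evidence.

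**Figure D1:**
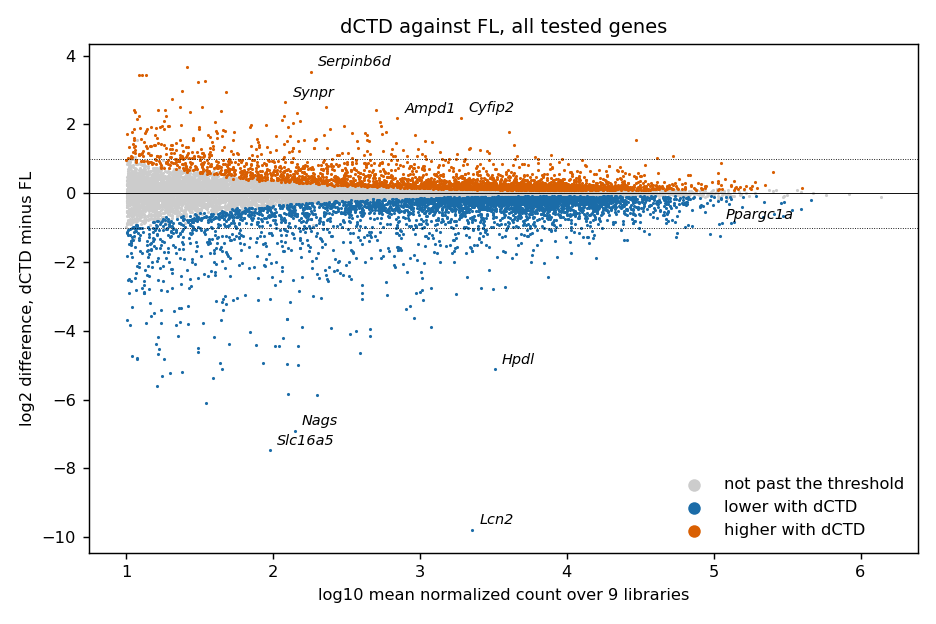
Log2 difference (dCTD minus FL, y axis) of each of 18155 tested genes against the log10 of its mean normalized count over the 9 libraries (x axis). Blue points were lower and orange points higher with dCTD at an adjusted p under 0.05, grey points were not past it, and dotted lines mark a 2-fold difference; the points far below the lower line, such as Hpdl, Nags and Lcn2, have no counterpart of like size above.

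The genes with the largest deficits were far lower with dCTD and with LacZ than with FL. The 12 lowest genes, among those with a mean of at least 50, came to Lcn2, Slc16a5, Nags, Sgk2, Cidec, Hpdl, Il1a, Aqp3, Elfn2, Pld4, Rac2 and Cyp2s1, with log2 differences from -9.78 to -4.45. Lcn2 (chr2:32384633-32388252, minus strand) encodes lipocalin 2, a secreted protein that binds bacterial siderophores, and had 9.09, 4.85 and 6.76 normalized counts in the dCTD libraries, 7265, 6085 and 7058 in the FL libraries and 0.899, 0 and 0 in the LacZ libraries. The FL libraries stood alone, with fewer than 10 counts in any other library, and the difference was -9.78 ± 0.24 (adjusted p = 1.58e-20). Hpdl (chr4:116819904-116821707, minus strand), a mitochondrial dioxygenase-like protein that takes part in making the head group of coenzyme Q, had 262, 271 and 268 normalized counts in the dCTD libraries, 9418, 8668 and 9849.5 in the FL libraries and 68.3, 72.5 and 73.2 in the LacZ libraries. Its dCTD libraries were above every LacZ library and far under every FL library, with a difference of -5.12 ± 0.07 (adjusted p = 5.34e-27), the smallest adjusted p of these 12 genes.

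Several of the others handle nitrogen, lipid or signalling. Nags, N-acetylglutamate synthase, which makes the activator of the urea cycle's entry enzyme, had 3.03, 2.43 and 1.93 normalized counts in the dCTD libraries, 428, 347 and 469 in the FL libraries and 1.8, 0.954 and 2.65 in the LacZ libraries. Its dCTD and LacZ libraries overlapped at a few counts each. Slc16a5, a transporter of the monocarboxylate family, had 2 reads with dCTD, 817 with FL and 0 with LacZ, each summed over 3 libraries. FL stood at 399 times dCTD, with a 95% exact counting interval of 110 to 3297 that covers counting error only. A long non-coding gene on the opposite strand of Slc16a5, Gm11695, was also lower (-2.98), and since the sources used here do not say whether strand was used in counting, reads of these overlapping genes may have been assigned to the wrong one.

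Sgk2, a kinase related to the insulin-responsive AKT family, had 8.08, 8.49 and 10.6 normalized counts in the dCTD libraries, 653, 525 and 589 in the FL libraries and 0, 0 and 0 in the LacZ libraries. Cidec, which enlarges lipid droplets in fat cells, had 7.07, 2.43 and 8.7 normalized counts in the dCTD libraries, against 381, 319 and 413 in the FL libraries. For both genes a low dCTD level was still above LacZ, where Sgk2 had 0 reads and Cidec 1 read in all. Rac2, a small GTPase best known from blood cells, had 19.2, 20.6 and 15.5 normalized counts in the dCTD libraries, against 460.1, 354 and 461 in the FL libraries, and Elfn2, a leucine-rich repeat membrane protein, had 6.06, 8.49 and 6.76 normalized counts in the dCTD libraries, against 245, 206 and 286 in the FL libraries. Over the LacZ libraries together Rac2 had 1 read and Elfn2 3 reads. The dCTD level was 60.1 times LacZ for Rac2 (95% exact counting interval 10.3 to 2419) and 7.70 times for Elfn2 (2.28 to 40.5). Rac2 and Elfn2 are neighbours, 94.5 kb apart on chromosome 15.

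Of the remaining members, Il1a, the cytokine interleukin 1α, had 17.2, 13.3 and 7.73 normalized counts in the dCTD libraries, 469, 331 and 475 in the FL libraries and 7.19, 5.73 and 6.18 in the LacZ libraries. Aqp3, a channel for water and glycerol, had 8.08, 13.3 and 10.6 normalized counts in the dCTD libraries, 392, 331 and 354 in the FL libraries and 0.899, 1.91 and 0.882 in the LacZ libraries. Pld4, a lysosomal member of the phospholipase D family, had 45.4, 36.4 and 47.4 normalized counts in the dCTD libraries, against 1276, 976 and 1077 in the FL libraries. In these 3 genes the dCTD libraries lay more than 10-fold below the FL libraries, a gap that the choice of genes favoured. Cyp2s1, a cytochrome P450, had 12.1, 12.1 and 14.5 normalized counts in the dCTD libraries, 299, 309.9 and 299 in the FL libraries and 9.89, 13.4 and 14.1 in the LacZ libraries, with dCTD and LacZ libraries at the same level. Across the 12 genes the dCTD mean lay between the FL and LacZ means in 12 of 12 cases, a count that the choice of genes favoured. For Cyp2s1 and Nags the dCTD and LacZ libraries overlapped, so an intermediate level is not shown there.

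**Figure D2:**
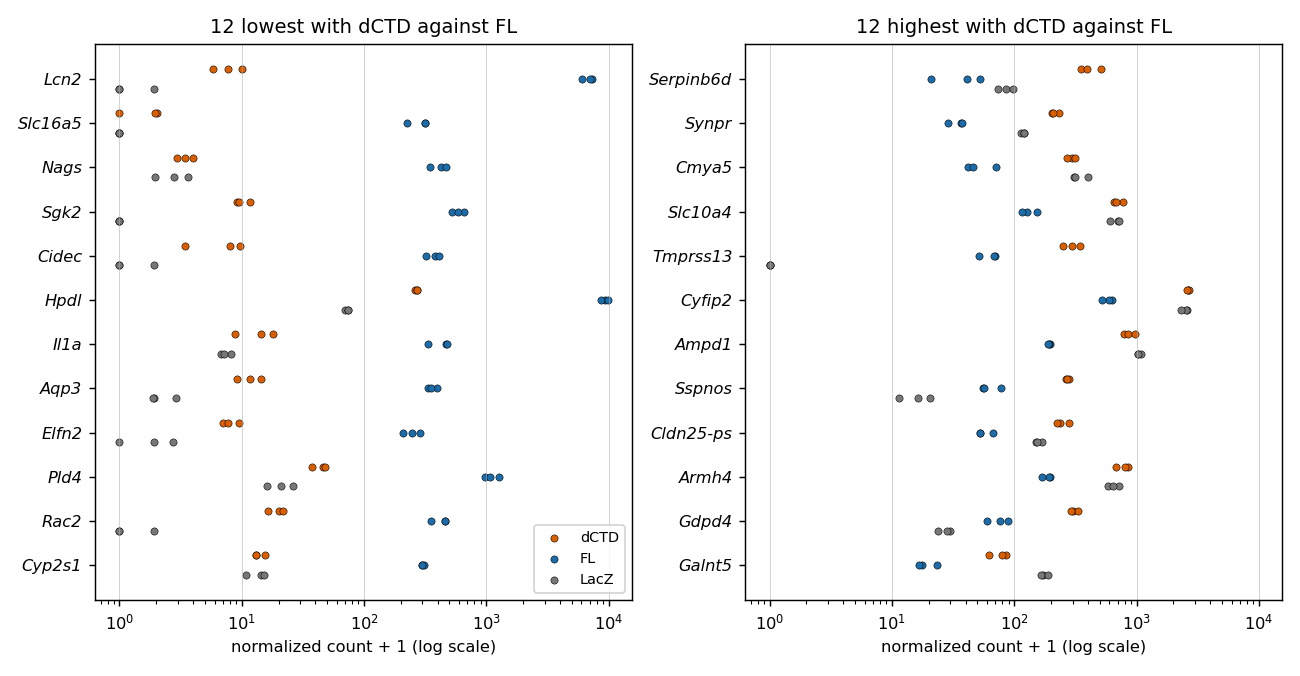
Normalized count + 1 (log x axis) in each of the 9 libraries for the 12 lowest (left panel) and 12 highest (right panel) genes with dCTD against FL, 1 point per library, coloured dCTD, FL and LacZ from top to bottom within a gene. On the left the dCTD points lie 1 to 3 decades below FL, for some genes, such as Cyp2s1, at the LacZ level and for others, such as Rac2, above it. On the right they lie above FL, for some genes at the LacZ level and for others, such as Tmprss13, beyond both.

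The regulators through which PGC-1α acts were a mixed group. In a list of 33 tested coactivators, estrogen-related and NRF factors and their partners, 15 were lower and 7 higher with dCTD, a share called of 66.7% against 38.9% of all genes, with a median of -0.06. With total reads the counts were 13 and 11 and the median was 0.01. Against LacZ, 16 were higher and 8 lower with dCTD, and 17 higher and 9 lower with FL. Esrra encodes ERRα, the nuclear receptor that PGC-1α coactivates on most respiratory genes, and had 10503, 9811 and 10405 normalized counts in the dCTD libraries, 18650.5, 18219 and 19719 in the FL libraries and 2584, 3203 and 2975 in the LacZ libraries. The groups did not overlap and stood with dCTD in the middle, FL highest and LacZ lowest, with a difference between the forms of -0.88 ± 0.06 (adjusted p = 4.98e-08). Perm1, a muscle protein induced by PGC-1 and ERR that supports oxidative genes, had 4029, 4514 and 4404 normalized counts in the dCTD libraries, 8807, 8101 and 8917 in the FL libraries and 42.3, 47.7 and 42.4 in the LacZ libraries. It differed by -0.996 ± 0.06 between the forms although dCTD still held it 6.58 log2 units above LacZ.

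Ppara, the nuclear receptor for fatty acids, had 105, 110.4 and 93.7 normalized counts in the dCTD libraries, 554, 501 and 558 in the FL libraries and 51.3, 39.1 and 37.1 in the LacZ libraries. With a difference of -2.37 ± 0.13 (adjusted p = 2.44e-14) it was the most reduced member of the list. Tfam, which packages and transcribes mitochondrial DNA, differed by -0.64 ± 0.04, and Gabpa, the DNA-binding subunit of NRF2, by -0.55 ± 0.04. Esrrb, another estrogen-related receptor, differed by -0.65 ± 0.07 and Nrf1 by only -0.19 ± 0.04. The third receptor went the other way: Esrrg had 109, 119 and 128 normalized counts in the dCTD libraries, 76.5, 92 and 80.1 in the FL libraries and 242, 185 and 224 in the LacZ libraries, higher with dCTD than with FL by 0.51 ± 0.13 (adjusted p = 0.00201) but lower in both than in LacZ libraries. Ppargc1b, the sister coactivator, was also higher (0.24 ± 0.07, adjusted p = 0.00822), a call lost when FL replicate 1 was left out. Nrip1, a corepressor that opposes PGC-1α, differed by 0.02 ± 0.04 (adjusted p = 0.805).

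Among 26 other nuclear receptors, 8 were lower and 5 higher, a share called of 50% against 38.9% of all genes (6 lower and 8 higher with total reads). The list's lowest difference was that of Nr0b2, which encodes SHP, an orphan receptor without a DNA-binding domain that represses other receptors. It had 61.6, 84.9 and 69.6 normalized counts in the dCTD libraries, 1378, 1154 and 1350.2 in the FL libraries and 0, 0 and 0 in the LacZ libraries. LacZ libraries held 0 reads, the dCTD libraries held 203 and the FL libraries 3748 in all, so that, set against a floor of 3 reads over the LacZ group, Nr0b2 was at least 78.2-fold higher in dCTD and at least 1409-fold higher in FL libraries. Of the genes for proteins reported to bind the C-terminal part, Med1 of Mediator differed by -0.08 ± 0.04 (adjusted p = 0.0911) and Ncbp1 of the cap-binding complex by -0.06 ± 0.04 (adjusted p = 0.203). In the list of 35 Mediator, cap-binding and transcription elongation genes 6 were lower and 1 higher, a share of 20%, below the 38.9% of all genes. The lower ones include the elongation cyclins Ccnt1 and Ccnt2, and the counts were 3 lower and 6 higher with total reads and 11 and 0 with the values as deposited.

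**Figure D3:**
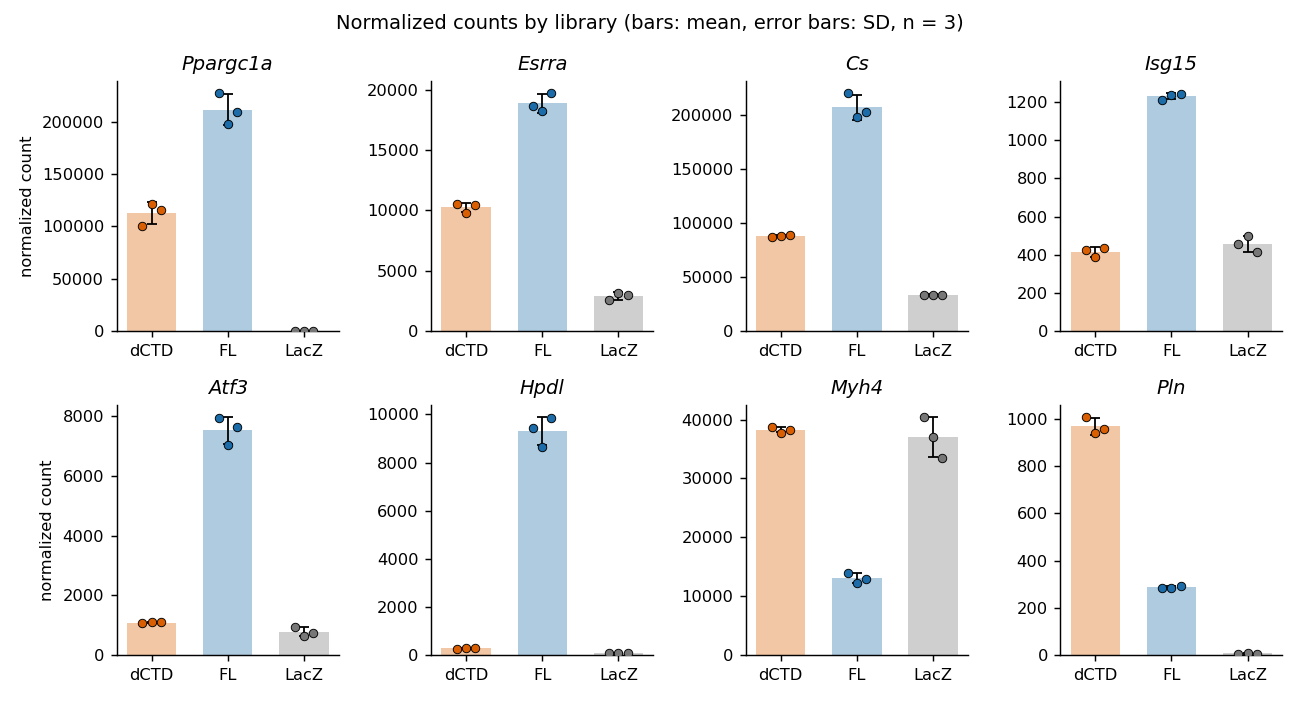
Normalized counts (y axis, from 0) of 8 genes in dCTD, FL and LacZ libraries; points are libraries, bars means and error bars SDs (n = 3 each). Ppargc1a, Esrra and Cs are intermediate with dCTD, Isg15, Atf3 and Hpdl are high in FL libraries alone, Myh4 is low in FL libraries alone, and Pln is highest with dCTD.

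Respiratory chain genes rose with both forms over LacZ and were modestly but widely lower with dCTD than with FL. Of 36 nuclear-encoded complex I genes, 26 were lower and 1 higher (21.4% and 17.5% of all genes), with a median of -0.29. The median over LacZ was 0.93 with dCTD and 1.27 with FL. Each form had 36 of 36 genes higher than LacZ, where 24.6% of all genes were higher with dCTD and 30.8% with FL. Complexes II and III had 11 of 13 genes lower, complex IV with cytochrome c 9 of 16, and ATP synthase 11 of 16. Their medians between the forms were -0.34, -0.20 and -0.26.

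Ndufb10, Cycs and Sdhb had the lowest differences of their lists and so show the stronger end of this range. Ndufb10, a complex I subunit, had 19752, 18691 and 20100.1 normalized counts in the dCTD libraries, 34782, 33499 and 36541 in the FL libraries and 6933, 7158 and 7199.7 in the LacZ libraries. Cycs, cytochrome c, had 51105, 51887 and 54531 normalized counts in the dCTD libraries, 95342, 88504 and 89140.2 in the FL libraries and 11214, 11968 and 12306 in the LacZ libraries. In both the 3 groups were fully apart, and the differences between the forms were -0.84 ± 0.04 and -0.79 ± 0.04 (adjusted p = 7.72e-16 and 7.68e-15). Sdhb, the iron-sulfur subunit of succinate dehydrogenase, differed by -0.85 ± 0.04, and Atp5b, the catalytic β subunit of ATP synthase, by -0.50 ± 0.04. Cox7a1, the muscle isoform of a cytochrome oxidase subunit, had 14678, 15154 and 17486 normalized counts in the dCTD libraries, 17969.7, 16900.3 and 17999 in the FL libraries and 1080, 1251 and 1096 in the LacZ libraries. It was the most raised gene of its list over LacZ, 3.79 with dCTD and 3.95 with FL, and the difference of -0.16 ± 0.07 between the forms was not past the threshold (adjusted p = 0.078), although it was past it in several alternative settings.

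The tricarboxylic acid cycle and pyruvate entry showed a larger deficit. Of 28 genes 23 were lower and 1 higher, a share called of 85.7% against 38.9% of all genes, with a median of -0.37. Cs, citrate synthase, the first enzyme of the cycle, had 86848, 87991 and 89173 normalized counts in the dCTD libraries, 220703, 198370 and 202811 in the FL libraries and 33972, 33868 and 33209 in the LacZ libraries. Its dCTD mean was nearer to the LacZ mean than to the FL mean, with a difference of -1.23 ± 0.04 (adjusted p = 4.84e-19). Mpc1, a subunit of the mitochondrial pyruvate carrier, had 11777, 12406 and 12912 normalized counts in the dCTD libraries, 29156, 27433 and 29279 in the FL libraries and 4555, 4563 and 4954 in the LacZ libraries, and Pdk4, the kinase that shuts off pyruvate dehydrogenase when fat is burnt, had 11669, 12274 and 11546 normalized counts in the dCTD libraries, 31072, 28047 and 28625 in the FL libraries and 4294, 4381 and 4453 in the LacZ libraries. They differed by -1.21 ± 0.04 and -1.30 ± 0.04 between the forms. Mdh2 and Ogdh, 2 further enzymes of the cycle, differed by -0.98 ± 0.04 and -0.95 ± 0.04.

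The machinery that builds mitochondria moved in the same direction. Of 77 mitochondrial ribosomal protein genes, 48 were lower and 3 higher, with a median of -0.19 (39 lower and 10 higher when scaled by total reads), and Mrps18b, with 3807, 3908 and 3843 normalized counts in the dCTD libraries, against 9697, 8448 and 8657 in the FL libraries, had the largest difference of the members named (-1.21 ± 0.04). Of 39 genes of import, mitochondrial DNA upkeep and dynamics, 30 were lower and 2 higher. Among them Twnk, the helicase of mitochondrial DNA, had 6256, 6198 and 6658 normalized counts in the dCTD libraries, against 14339.9, 13005 and 13599.5 in the FL libraries, a difference of -1.10 ± 0.04. The matrix chaperones Hspa9, Hspd1 and Hspe1 differed by -0.85 ± 0.04, -0.84 ± 0.04 and -0.83 ± 0.04, and Mfn1, which fuses outer membranes, by -0.75 ± 0.04. In coenzyme Q synthesis and complex assembly 24 of 42 genes were lower and 2 higher, with Pdss1, which starts the isoprenoid tail of coenzyme Q, at -1.05 ± 0.05 beside Hpdl. Heme and iron-sulfur genes had 13 of 23 lower and 2 higher, among them Alas1, the rate-limiting enzyme of heme synthesis, at -0.57 ± 0.04.

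**Figure D4:**
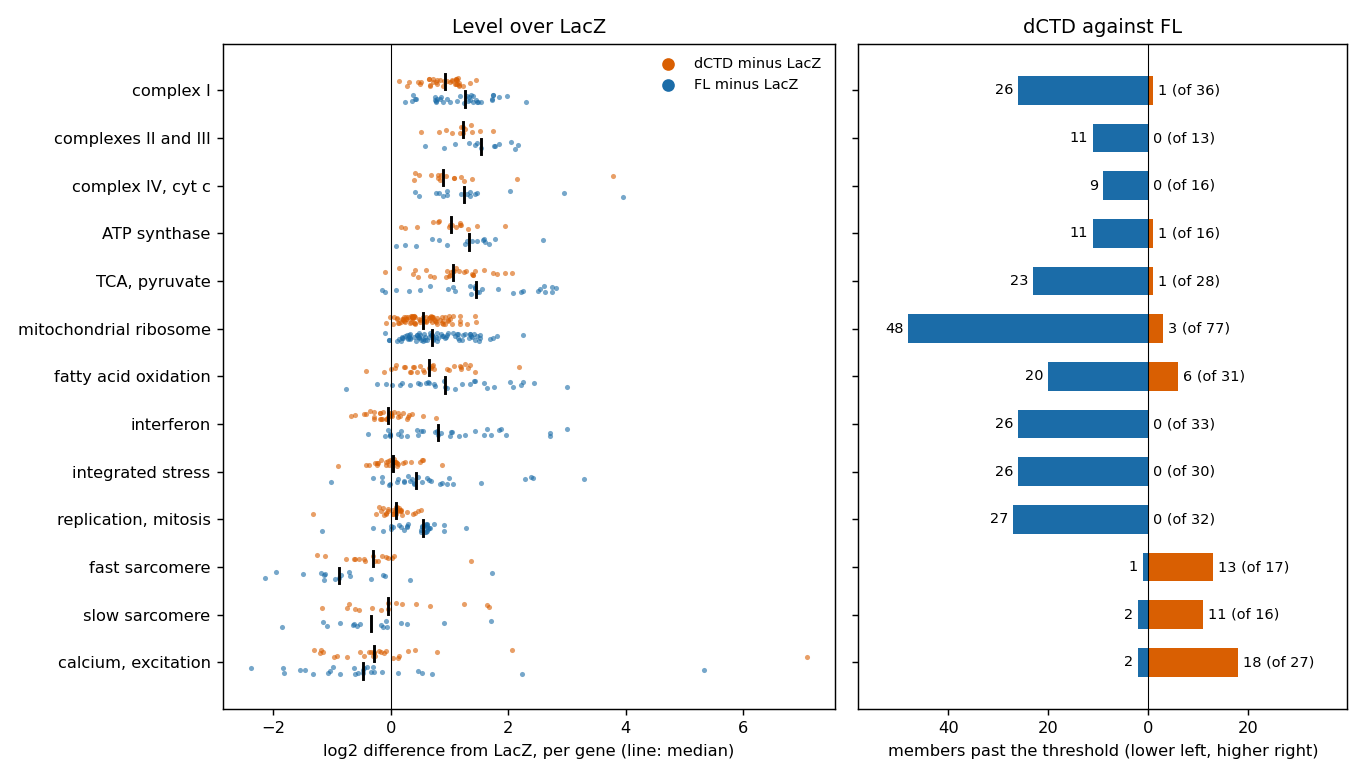
Left, log2 difference from LacZ (x axis) of each member of 13 gene lists with dCTD (orange, upper row) and FL (blue, lower row), with the median as a black line; right, number of members lower (blue, to the left) and higher (orange, to the right) with dCTD than with FL at an adjusted p under 0.05. Mitochondrial lists sit right of 0 with both forms, interferon, stress and replication lists sit near 0 with dCTD and right of it with FL, and sarcomere and calcium lists lie further left with FL.

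Genes of fat burning were also lower with dCTD. Fatty acid oxidation had 20 of 31 genes lower and 6 higher, with a median of -0.40. Acot2, a mitochondrial thioesterase that releases fatty acids from coenzyme A, had 1249.7, 1178 and 1216 normalized counts in the dCTD libraries, 4129.9, 4042 and 4013 in the FL libraries and 869, 811 and 882 in the LacZ libraries. The dCTD libraries were close above LacZ, and the difference between the forms was -1.74 ± 0.05 (adjusted p = 2.78e-20). Acadm, medium-chain acyl-CoA dehydrogenase, differed by -0.88 ± 0.04 and Etfdh, which passes its electrons to coenzyme Q, by -0.90 ± 0.04. Cpt1b, the muscle carnitine palmitoyltransferase, had few reads and a positive difference of 0.69 ± 0.28 that missed the threshold (adjusted p = 0.052).

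Aminotransferases and kynurenine enzymes had the lowest median of the metabolic lists, -0.64, with 10 of 11 genes lower and 0 higher. Got1, cytosolic aspartate aminotransferase, had 45214, 45224 and 47571 normalized counts in the dCTD libraries, 119674, 104935 and 109369 in the FL libraries and 8988, 9193 and 8464 in the LacZ libraries, a difference of -1.27 ± 0.04. Kyat1 and Kyat3, which turn kynurenine into kynurenic acid, differed by -1.08 ± 0.05 and -1.04 ± 0.06. In ketone and branched-chain amino acid breakdown the list was split, with 8 of 23 lower and 7 higher (7 and 10 with total reads). Its ketone enzymes were among the lower ones: Bdh1, which oxidises hydroxybutyrate, had 3637, 3853 and 3926 normalized counts in the dCTD libraries, 14074, 12416 and 13313 in the FL libraries and 165, 138 and 189.7 in the LacZ libraries, and Oxct1, the next enzyme of ketone use, differed by -0.94 ± 0.04.

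Glucose genes moved both ways. Of 36 genes 16 were lower and 8 higher, a share called of 66.7% against 38.9% of all genes. Slc2a4, the insulin-responsive transporter GLUT4, had 1707, 1918 and 1888 normalized counts in the dCTD libraries, 5654, 4848 and 5259 in the FL libraries and 281, 245 and 251 in the LacZ libraries. Ldhb, the lactate dehydrogenase subunit of heart-type enzyme that favours pyruvate, had 19783, 20534 and 22584 normalized counts in the dCTD libraries, 57377, 49754 and 54769 in the FL libraries and 2133, 2303 and 2169.6 in the LacZ libraries. Both were lower with dCTD than with FL (-1.51 and -1.36) and still well above LacZ, whereas Ldha, the glycolytic subunit, was higher with dCTD than with FL (0.36 ± 0.07, adjusted p = 0.00107). Pgam2, the muscle phosphoglycerate mutase, was also higher (0.92 ± 0.04), while Hk1 and Pfkfb4, a hexokinase and a kinase that makes the activator of phosphofructokinase, were lower (-1.02 ± 0.03 and -1.41 ± 0.05). In the high-energy phosphate list 10 of 18 genes were lower and 5 higher. Slc25a5, an adenine nucleotide carrier, differed by -0.88 ± 0.04, and Ckm, the cytosolic muscle creatine kinase, by 0.66 ± 0.05.

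Lipid droplet genes had 11 of 24 lower and 4 higher, a share called of 62.5% against 38.9% of all genes. Plin5, which ties droplets to mitochondria, had 14.1, 12.1 and 28 normalized counts in the dCTD libraries, 361, 285 and 345 in the FL libraries and 0, 0 and 0.882 in the LacZ libraries. Pnpla2, the triglyceride lipase ATGL, had 4949, 4979.9 and 5396 normalized counts in the dCTD libraries, 19034, 17807 and 18084 in the FL libraries and 2451, 2431 and 2364 in the LacZ libraries. For both genes the dCTD libraries lay between the FL and LacZ libraries, nearer to LacZ, with differences between the forms of -4.20 ± 0.32 and -1.84 ± 0.04. Cidea, a droplet protein of brown fat, had 201, 209.9 and 224 normalized counts in the dCTD libraries, 2369, 2002 and 2163 in the FL libraries and 3.6, 0 and 4.41 in the LacZ libraries, a difference of -3.36 ± 0.62 (adjusted p = 0.00519). That error includes the spread of LacZ libraries, whose SD was 2.35 at a mean of 2.67. The SDs of the forms were 11.8 with dCTD and 184 with FL. Of the 11 brown fat markers 8 were measured, 3 lower, Cidea and Ppara among them, and 1 higher, Dio2. The sum of the markers was 28331 to 28556 normalized counts in the dCTD libraries, 26146 to 26794 in the FL libraries and 26582 to 27892 in the LacZ libraries. Dio2 was the largest part of it, with means of 20314 with dCTD, 12999 with FL and 21860 with LacZ, so the sum hides the lower markers. Ucp1, the defining uncoupler, had 3 reads over the dCTD libraries, 0 over the FL libraries and 1 over the LacZ libraries. Of 11 adipocyte markers 4 were measured, with Adipoq at 4, 3 and 5 reads in dCTD, FL and LacZ libraries.

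Interferon-response genes were high in the FL libraries and near or below their LacZ level with dCTD. Of 33 genes, 26 were lower and 0 higher with dCTD than with FL, with a median of -0.75. Against LacZ, 7 genes were higher and 8 lower with dCTD (median -0.04), and 24 higher and 1 lower with FL (median 0.81). Among all genes, 24.6% were higher and 21.0% lower than LacZ with dCTD, and 30.8% higher and 28.3% lower with FL. Isg15, a ubiquitin-like antiviral protein, had 427, 387 and 436 normalized counts in the dCTD libraries, 1211, 1235 and 1243 in the FL libraries and 458, 497 and 412 in the LacZ libraries. All dCTD libraries lay among or below the LacZ libraries and the FL libraries stood apart, with a difference between the forms of -1.56 ± 0.07 (adjusted p = 8.02e-16). Usp18, which removes ISG15 from proteins and dampens interferon signalling, had 13.1, 10.9 and 5.8 normalized counts in the dCTD libraries, 104, 94.7 and 130.2 in the FL libraries and 15.3, 19.1 and 13.2 in the LacZ libraries, and Ifi44 had 41.4, 32.8 and 29 normalized counts in the dCTD libraries, against 335, 294 and 318 in the FL libraries. Irf9, the DNA-binding subunit of the complex that carries the type I interferon signal, differed by -1.03 ± 0.05, and Oasl2, a relative of the RNA-sensing oligoadenylate synthetases, by -2.16 ± 0.08. All 9 libraries came from cells given an adenovirus, and the number of virus genomes per cell was not measured here.

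Many promoters of these genes hold a known element. The interferon-stimulated response element, searched as 2 copies of GAAA with any 2 bases between them, on both strands from 250 bases before to 50 after the start site (RefSeq, GRCm38.p6), was present in 13 of the 26 protein-coding list members with a sequence (50%), out of 32, against 3.99% of all 27025 genes of the promoter table. Shown here are the 5 members with the lowest difference whose match lies before the start, 30 bases around the first match, read 5′ to 3′ on the strand named, with every match in capitals.
Gbp3 (chr3:142559989-142560018, minus strand): ctggGAAATAGAAACTGAAActgtgtcctg
Ifit1 (chr19:34640775-34640804, minus strand): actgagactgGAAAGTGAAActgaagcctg
Ifit3b (chr19:34607759-34607788, minus strand): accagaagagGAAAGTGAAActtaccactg
Ifit3 (chr19:34583363-34583392, minus strand): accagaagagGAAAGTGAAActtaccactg
Isg15 (chr4:156200877-156200906, minus strand): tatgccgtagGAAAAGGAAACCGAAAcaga
The windows of Ifit3b and Ifit3 are letter for letter the same, and reads of these near-identical genes may have been divided in counting. Gbp3, a guanylate-binding GTPase, had 38.4, 58.2 and 41.6 normalized counts in the dCTD libraries, against 202, 169.7 and 196 in the FL libraries, a difference of -2.03 ± 0.17. Ifit1, which binds foreign 5′ RNA ends, had 194, 241 and 188 normalized counts in the dCTD libraries, against 845, 769 and 886 in the FL libraries, a difference of -2.004 ± 0.20. The windows of Gbp3 and Isg15 hold overlapping matches. A match describes the letters of the window and not a bound site. Shares of promoters with a match, here and below, describe lists made of genes known for these pathways. The promoter table also holds genes not tested here, so these shares say nothing about dCTD against FL.

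Genes of the integrated stress response followed a like pattern. This pathway slows translation and raises ATF4, which induces amino acid transport and synthesis. Of 30 genes 26 were lower and 0 higher with dCTD than with FL, a share called of 86.7% against 38.9% of all genes. The median was -0.43, and the medians over LacZ were 0.05 with dCTD and 0.44 with FL. Against LacZ, 9 genes were higher and 8 lower with dCTD, a share called of 56.7% against 45.6% of all genes. With FL 23 were higher and 3 lower than LacZ, a share of 86.7% against 59.1%. Atf3, a stress-induced repressor, had 1055, 1088 and 1110.4 normalized counts in the dCTD libraries, 7934, 7037 and 7639 in the FL libraries and 951, 639 and 744 in the LacZ libraries, a difference of -2.79 ± 0.13 (adjusted p = 7.78e-07). Gdf15, a hormone released by stressed cells, had 347, 249 and 317 normalized counts in the dCTD libraries, 1000, 1069 and 1296 in the FL libraries and 206, 193 and 226 in the LacZ libraries. In both genes the dCTD libraries lay above the LacZ libraries and far below the FL libraries. Ppp1r15a, which restores translation, differed by -1.45 ± 0.05, Trib3, a pseudokinase target of ATF4, by -1.72 ± 0.15, Atf4 itself by -0.63 ± 0.04, and Shmt2, the mitochondrial serine hydroxymethyltransferase, by -0.71 ± 0.04.

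The composite C/EBP-ATF element, searched as TGATGNAA on both strands in the same promoter span, was found in 9 of 28 list members with a sequence (32.1%), out of 30, against 4.51% of all genes of the table. The same rule gave the 5 members below, with the lowest difference and a match before the start. Matches are in capitals, 5′ to 3′ on the strand named (RefSeq, GRCm38.p6).
Atf3 (chr1:191183425-191183454, plus strand): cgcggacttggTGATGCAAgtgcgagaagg
Asns (chr6:7693214-7693243, minus strand): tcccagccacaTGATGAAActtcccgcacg
Slc7a11 (chr3:50443661-50443690, minus strand): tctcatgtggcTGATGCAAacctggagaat
Chac1 (chr2:119351038-119351067, minus strand): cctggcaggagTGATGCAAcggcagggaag
Nupr1 (chr7:126625562-126625591, plus strand): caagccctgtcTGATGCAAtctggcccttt
Asns, asparagine synthetase, had 10571, 10454 and 10981 normalized counts in the dCTD libraries, against 24277, 22012 and 22711 in the FL libraries, and Slc7a11, the cystine importer, had 321, 306 and 326 normalized counts in the dCTD libraries, against 583, 563 and 484 in the FL libraries. Both were lower with dCTD (-1.11 and -0.77), and the call of Slc7a11 was lost when dCTD replicate 2 was left out. Chac1, which degrades glutathione, and Nupr1, a stress-induced nuclear protein, differed by -0.31 ± 0.09 and -0.26 ± 0.05. In the 93 respiratory chain and tricarboxylic acid cycle promoters with a sequence, of 109, this element was found in 0, and the NRF1 element (GCGC, then AT, then GCGC) in 5 (5.38%), against 1.07% of all genes. The element of the estrogen-related receptors (TCA, then AGGTCA) was found in 2 (2.15%), against 0.466%. The MEF2 element (CTA, any 4 bases, TAG) was found in 2 (2.15%), against 4.23%, and the interferon element in 3 (3.23%), against 3.99%.

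DNA replication and mitosis genes were lower with dCTD than with FL, and their sum was near its LacZ level. Against LacZ, 10 genes were higher and 5 lower with dCTD, a share called of 46.9% against 45.6% of all genes. With FL 26 were higher and 3 lower than LacZ, a share of 90.6% against 59.1%. Of 32 genes 27 were lower and 0 higher, a share called of 84.4% against 38.9% of all genes, with a median of -0.42. Their summed level was 86352 to 86689 normalized counts in the dCTD libraries, 114222 to 116558 in the FL libraries and 84752 to 88150 in the LacZ libraries. Rrm2, the subunit of ribonucleotide reductase that limits nucleotide supply for DNA synthesis, had 13974, 13821 and 13091 normalized counts in the dCTD libraries, 28991, 25911 and 27310.3 in the FL libraries and 11244, 11182 and 11220.4 in the LacZ libraries, a difference of -1.01 ± 0.04 (adjusted p = 3.41e-17). Mki67, a marker of cycling nuclei, had 3215, 3061 and 3136 normalized counts in the dCTD libraries, 4376, 4809.5 and 4672 in the FL libraries and 3099.9, 2617 and 3071 in the LacZ libraries. For both genes the FL libraries were above all others. The dCTD libraries of Rrm2 lay above all LacZ libraries, and those of Mki67 overlapped with LacZ. Of the markers of myoblasts and reserve cells, which have not fused, 5 of 16 were lower and 2 higher (3 and 7 with total reads). This share called, 43.75%, is near the 38.9% of all genes. The summed level of these markers was 380426 to 383883 normalized counts in the dCTD libraries, 369916 to 373537 in the FL libraries and 442549 to 454536 in the LacZ libraries. In bulk RNA, fewer cells of a kind and less RNA per cell cannot be told apart.

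Genes higher with dCTD were of several kinds, and their differences were smaller. The 12 highest genes, chosen by the same rule with the forms exchanged, were Serpinb6d, Synpr, Cmya5, Slc10a4, Tmprss13, Cyfip2, Ampd1, Sspnos, Cldn25-ps, Armh4, Gdpd4 and Galnt5, with log2 differences from 3.53 to 1.98. In 6 of them the dCTD mean lay beyond LacZ on the side away from FL, in 3 between FL and LacZ, and in 3 beyond FL. Serpinb6d (chr13:33661405-33671581, plus strand), a serine protease inhibitor of a family of near-identical genes among which reads may be divided, had 507, 349 and 393 normalized counts in the dCTD libraries, 51, 40.2 and 20 in the FL libraries and 72.8, 84.9 and 96.2 in the LacZ libraries. The dCTD libraries were above all LacZ libraries and the FL libraries below them, with a difference of 3.53 ± 0.30 (adjusted p = 9.42e-06). Synpr, a synaptic vesicle membrane protein, had the same order, with 229, 203 and 206 normalized counts in the dCTD libraries, 35.5, 27.7 and 36.7 in the FL libraries and 112, 118 and 118 in the LacZ libraries.

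Other genes of this group were low in FL libraries alone. Cyfip2 (chr11:46193850-46312859, minus strand), a member of the complex that drives actin branching, had 2651, 2702 and 2561 normalized counts in the dCTD libraries, 624, 599 and 516 in the FL libraries and 2585, 2515 and 2311 in the LacZ libraries. Slc10a4, a vesicular member of the bile acid transporter family, had 775, 653 and 677 normalized counts in the dCTD libraries, 152, 125 and 115 in the FL libraries and 705, 718 and 602 in the LacZ libraries. Cmya5, a large muscle protein known as myospryn, had 294, 312 and 267 normalized counts in the dCTD libraries, 41, 44.6 and 70.1 in the FL libraries and 399, 305 and 314 in the LacZ libraries. In these genes dCTD and LacZ libraries overlapped, and the differences between the forms were 2.19 ± 0.06, 2.42 ± 0.10 and 2.50 ± 0.16. Ampd1, the muscle AMP deaminase, was 2.17 ± 0.07 higher, and Galnt5, a glycosyltransferase that starts O-linked sugar chains, was lower than LacZ with both forms and more so with FL (-1.22 with dCTD and -3.20 with FL).

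Still others were raised by both forms, and more by dCTD. Tmprss13, a membrane serine protease, had 250.3, 343 and 294 normalized counts in the dCTD libraries, 68.7, 50 and 66.8 in the FL libraries and 0, 0 and 0 in the LacZ libraries. It was not read in LacZ libraries, so against the same floor it was at least 322-fold higher in dCTD libraries, and in FL libraries at least 66.9-fold. Pln, phospholamban, the inhibitor of the sarcoplasmic calcium pump in heart and slow muscle, had 1010.5, 940.2 and 959.6 normalized counts in the dCTD libraries, 285, 286 and 293 in the FL libraries and 5.4, 9.54 and 4.41 in the LacZ libraries, a difference of 1.75 ± 0.17 (adjusted p = 3.09e-08). Gdpd4, a glycerophosphodiester phosphodiesterase family member, had 299, 331 and 292 normalized counts in the dCTD libraries, 88.7, 58.9 and 75.7 in the FL libraries and 28.8, 22.9 and 27.4 in the LacZ libraries. In Pln and Gdpd4 the 3 groups were apart, with LacZ lowest. Sspnos, an antisense transcript of the sarcospan gene Sspn, had 278, 263 and 267 normalized counts in the dCTD libraries, against 76.5, 54.5 and 55.7 in the FL libraries, while Sspn itself differed by 0.38, and reads of the overlapping pair cannot be told apart if strand was ignored in counting.

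The sarcomere lists moved together. Of 17 fast-fibre genes 13 were higher and 1 lower with dCTD than with FL, with a median of 0.41, and medians over LacZ of -0.30 with dCTD and -0.88 with FL. Of 16 slow-fibre genes 11 were higher and 2 lower, with a median of 0.39. Myh4, the fastest myosin heavy chain, had 38652, 37784 and 38271 normalized counts in the dCTD libraries, 13986, 12246 and 12955 in the FL libraries and 40456, 37087 and 33530.5 in the LacZ libraries. The dCTD and LacZ libraries overlapped and the FL libraries lay below them, at a dCTD level 2.93 times that of FL and a difference of 1.55 ± 0.06 (adjusted p = 4.46e-12). Myh1, Myh2 and Myh7, the other adult fast chains and the slow chain, were higher by 0.87 ± 0.04, 0.84 ± 0.05 and 0.42 ± 0.05, with the reservation that near-identical myosin genes may share reads.

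Some slow-fibre genes exceeded both other groups. Myl2, the slow and cardiac regulatory light chain, had 6388, 8288 and 8679 normalized counts in the dCTD libraries, 3019, 2699 and 3108 in the FL libraries and 2296, 2509.8 and 2427 in the LacZ libraries, and Mybpc1, the slow myosin-binding protein C, had 7085, 7304 and 7403 normalized counts in the dCTD libraries, 3614, 3247 and 3476 in the FL libraries and 3204, 3058 and 2875 in the LacZ libraries. They were higher with dCTD than with FL by 1.39 ± 0.12 and 1.08 ± 0.04, and higher than LacZ by 1.68 and 1.26. Against the trend, Myl6b, a slow alkali light chain, was lower with dCTD (-1.08 ± 0.06). Among 30 developmental and structural muscle genes 15 were higher and 5 lower. Tcap, telethonin, which caps titin in the Z-disc, was higher by 1.17 ± 0.07, whereas Des, desmin, the muscle intermediate filament, was lower (-0.67 ± 0.04), as was Ankrd2, a stretch-responsive ankyrin protein (-1.15 ± 0.07). Myotube markers as a whole had 11 of 17 higher and 2 lower.

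Calcium handling and excitation genes were mostly higher, with 18 of 27 higher and 2 lower and a median of 0.27. Clcn1, the chloride channel that steadies the resting membrane, had 141, 144 and 141 normalized counts in the dCTD libraries, 42.1, 34.8 and 33.4 in the FL libraries and 230.2, 209 and 153 in the LacZ libraries, a difference of 1.93 ± 0.15 (adjusted p = 3.16e-11). Trdn, triadin, which anchors the calcium release complex, was higher by 1.10 ± 0.05, Hrc, a calcium-binding protein of the sarcoplasmic reticulum, by 0.76 ± 0.05, and Casq1, the fast calsequestrin, by 0.84 ± 0.05. Casq1 stayed below LacZ with both forms (-1.12 with dCTD and -1.96 with FL). At the neuromuscular junction the list was divided, with 8 of 20 higher and 7 lower. Ache, acetylcholinesterase, had 667, 619.9 and 570.2 normalized counts in the dCTD libraries, 217, 191 and 245 in the FL libraries and 509.9, 538 and 485 in the LacZ libraries, and Colq, its collagen tail, was higher by 0.79 ± 0.06, while Dok7, the activator of the receptor kinase MuSK, was lower (-0.94 ± 0.04).

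Some regulators of muscle transcription and splicing were among the higher genes. Mef2c, a transcription factor of muscle genes, had 25799.7, 26433 and 24004 normalized counts in the dCTD libraries, 18705, 18519 and 18221 in the FL libraries and 45634, 44118 and 45499 in the LacZ libraries, and was higher with dCTD than with FL by 0.46 ± 0.04 but below LacZ in both. Of 42 splicing genes 10 were higher and 5 lower, a share called of 35.7%, near the 38.9% of all genes. The split depends on scaling, with 20 higher and 1 lower with total reads and 6 and 7 with the values as deposited. Rbfox1, a splicing factor of muscle and nerve, had 1282, 1333 and 1136 normalized counts in the dCTD libraries, 425, 409 and 469 in the FL libraries and 1524, 1575 and 1564 in the LacZ libraries, the largest difference of this list (1.52 ± 0.06, adjusted p = 1.36e-16). Rbm24, another muscle splicing factor, was higher by 0.35 ± 0.03, and Srpk3, a muscle kinase of splicing factors, by 0.34 ± 0.06 while far below LacZ with both forms (-1.92 with dCTD and -2.26 with FL).

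Some lists moved little. Of 53 cytosolic ribosomal protein genes 4 were lower and 1 higher, 9.43% against 38.9% of all genes, and the calls of Rps2, Rps3 and Rpl18 were lost when libraries were scaled by total reads, which gave 1 lower and 7 higher. Sterol and fatty acid synthesis had 3 of 27 lower and 5 higher, a share called of 29.6%. Its lowest difference was large, that of Acacb at -1.18 ± 0.06 (limma, adjusted p = 2.4e-15). Acacb had means of 1498 with dCTD, 3405 with FL and 292 with LacZ. Markers of cells other than muscle gave no common direction: 4 of 10 fibroblast markers were higher and 0 lower, with sums of 97470 to 99442 normalized counts in the dCTD libraries, 93910 to 98146 in the FL libraries and 98708 to 103099 in the LacZ libraries, and 3 of 6 endothelial markers were higher, led by Cldn5 with 54 reads in all dCTD libraries together and 3 in all FL libraries together, 18.4 times as much per scaled library, with a 95% exact counting interval of 5.98 to 92.2. The defining endothelial markers Tie1, with 0 reads in all 9 libraries, and Emcn, with 1 read, were at the floor. Macrophage markers summed to 739 to 758 normalized counts in the dCTD libraries, 795 to 919 in the FL libraries and 786 to 824 in the LacZ libraries, and Ptprc, the pan-leukocyte CD45, had 3, 5 and 15 reads in dCTD, FL and LacZ libraries.

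By gene class, 3517 of 14012 protein-coding genes were lower and 2744 higher, and 190 of 1885 long non-coding genes were lower and 320 higher. The majority of higher calls among long non-coding genes held when libraries were scaled by total reads (166 lower, 424 higher), whereas that scaling turned the protein-coding split round (2701 lower, 4714 higher). The 480 protein-coding genes at least 2-fold lower had a median exonic length of 3.46 kb and the 167 at least 2-fold higher one of 3.67 kb, against 4.38 kb for all 14012. Their median gene spans were 17.6 kb for the lower and 26.6 kb for the higher genes, against 24.1 kb for all. The lower and higher genes were also low in level, with median normalized counts of 154 and 70.5, against 2748 for all.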

How the data were processed

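RNA-seq was run on 3 libraries each of dCTD, FL and LacZ myotubes, from polyadenylated RNA with a stranded kit, per the labels' protocols. Tools named in the submitters' processing notes are STAR 2.7.2b, featureCounts 1.6.4, DESeq2 2.11.40.6, Trim Galore 0.4.3.1 and FastQC 0.72, with genome build mm10. Their settings, use of strand included, are not given in the sources used here. The authors deposited 2 tables of 55421 genes, FL with LacZ and dCTD with LacZ, whose per-library signal is whole read counts divided by a size factor. The authors' log2 fold changes, score columns and p-values in the same tables were not used.

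Each column was divided by its smallest value above 0, which gave whole reads for 100% of 237557 values within 0.001 reads, and the LacZ reads differed at 0 genes between tables. In 14 cases a gene symbol turned into a date was restored from its identifier. Coordinates were taken from these tables (mm10) and are counted from 1. The reads of 9 libraries were scaled together by median-of-ratios, and genes with a mean of at least 10 were tested with limma 3.58.1 (trend and robust) in R 4.3.3 on log2(normalized count + 1), a scale that understates changes of low genes. All 9 libraries were in 1 fit with 3 groups and 1 estimate of the spread per gene. The spread of the LacZ libraries therefore enters the errors and p-values between the forms, which matters most where LacZ is near 0. P-values were two-sided and Benjamini-Hochberg adjusted over all 18155 genes, with a threshold of 0.05. Libraries of a group correlated at 0.996 or more. Where a group had 0 reads, a bound was taken against a floor of 3 reads over the group, and with 1 to 3 reads a ratio with a 95% exact interval was given, both for counting error only. The p-values measure the spread between these libraries, whose independence beyond the word biological in the series text is not described.

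Genes named are Ppargc1a, a panel of 29 others, the 12 lowest and 12 highest differences (mean of at least 50, regular symbol, libraries apart) and up to 6 members of each list, 4 by p and 2 by size. The genes of the printed promoter windows and Trib3, Gm11695 and Sspn were added after their values were seen. The comparison, the lists, the panel and the motifs were chosen with earlier results of these data known. The steps were tested on simulated data. Alternatives were other scalings, filters and pseudocounts, edgeR 4.0.16, DESeq2 1.42.0, a replicate block, and leaving out each library. The in vitro RNA-binding assay of the series text was not analysed here.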

Additional observations from a re-analysis of the deposited data

How the results depend on the processing

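The 7059 calls for dCTD against FL became 7223 with TMM, 8339 with total reads without Ppargc1a, 6981 with the values as deposited, 7021 with edgeR, 6656 with DESeq2, and 6023 to 7293 when 1 library was left out. A fit of only the 6 libraries compared gave 7241. Of the counts of calls, those that moved by over 1.5 times were the genes higher with dCTD than with FL, 5324 with total reads, and the genes past 2-fold. With genes that had at least 1 read in any library, more low genes were tested and the count past 2-fold was 1444 for dCTD against FL and 3526 for FL against LacZ. With a mean of at least 50, fewer genes were tested and it was 459 for dCTD against FL, 1545 for FL against LacZ and 834 for dCTD against LacZ. Without each library in turn, the count past 2-fold for dCTD against FL stayed at 801 to 876. Taking the replicate number as a block gave 6732 calls for dCTD against FL. The labels do not say that equal numbers share a culture or day, deviations of same-numbered dCTD and FL libraries correlated at -0.047, 0.078 and 0.088, and not every library correlated best with its own number. No named gene changed the sign of a called difference in the alternatives run, and over all named genes and settings 5682 values kept their side of the threshold, 94 lost the call and 16 gained it. The cause of these moves was not tested. Genes near the minimum of 10 counts, and the groups with 0 to 3 reads, are limited by depth.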

Other observations

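Single genes of several other lists also differed between the forms, while most of these lists were divided. Epas1, the hypoxia factor HIF-2α, had 224, 249 and 251 normalized counts in the dCTD libraries, 1502, 1339 and 1529 in the FL libraries and 46.8, 54.4 and 46.8 in the LacZ libraries, a difference of -2.59 ± 0.09 (limma, adjusted p = 8.55e-18). Vegfa, the main vessel growth factor and a known target of PGC-1α, was raised by both forms over LacZ (0.57 with dCTD and 0.97 with FL) and differed by -0.40 ± 0.04 between them. Its relative Vegfb differed by -0.83 ± 0.05, whereas Vegfd and the fibroblast growth factor Fgf1 were higher with dCTD (0.97 ± 0.07 and 0.76 ± 0.12). Of the 20 angiogenic genes 6 were lower and 5 higher, against 21.4% and 17.5% of all genes. Tnxb, an extracellular tenascin, had 308, 357 and 319 normalized counts in the dCTD libraries, 2516, 2387 and 2511 in the FL libraries and 0.899, 2.86 and 0.882 in the LacZ libraries. It was far above LacZ with both forms and lower with dCTD than with FL (-2.91 ± 0.22), in a list of 37 matrix genes of which 16 were lower and 2 higher.

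Defence against oxidants had 13 of 28 genes lower and 6 higher, with Sod2, the mitochondrial superoxide dismutase, at -0.81 ± 0.04 and Srxn1, which restores peroxiredoxins, at -0.69 ± 0.04. Peroxisomal genes were divided (10 of 29 lower, 6 higher; 9 and 10 with total reads). Abcd2, a peroxisomal transporter of fatty acids, had 838, 804 and 914 normalized counts in the dCTD libraries, 583, 571 and 673 in the FL libraries and 431, 411 and 491 in the LacZ libraries, a difference of 0.49 ± 0.08. Among hormones of muscle, Fndc5, the precursor of irisin, differed by -0.41 ± 0.04, Ostn, musclin, by -3.16 ± 0.39 and Il15 by 0.50 ± 0.07. The ubiquitin ligases Trim63, known as MuRF1, and Fbxo40 were higher with dCTD than with FL (0.77 ± 0.04 and 1.12 ± 0.05) and below LacZ with both forms, in an atrophy list with 7 of 22 lower and 7 higher (5 and 11 with total reads). Of the immediate early and clock genes 10 of 32 were lower and 7 higher (7 and 9 with total reads). Fos, an immediate early transcription factor, had 435, 434 and 404 normalized counts in the dCTD libraries, 1418, 1240.3 and 1318 in the FL libraries and 376, 345 and 391 in the LacZ libraries. Ciart, a repressor of the clock, had 370.5, 369 and 362 normalized counts in the dCTD libraries, 1199.6, 1044 and 1109 in the FL libraries and 348, 328 and 330 in the LacZ libraries. For both the FL libraries stood apart and the dCTD libraries were near LacZ.

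The remaining lists had the following counts lower and higher with dCTD, where 38.9% of all genes were called: NF-κB and inflammation 7 and 4 of 21, p53 and apoptosis 7 and 5 of 28, TGF-β and BMP 9 and 9 of 33, myokines 6 and 4 of 23, and lysosome and autophagy 5 and 6 of 30. The shares called were 52.4%, 42.9%, 54.5%, 43.5% and 36.7% in that order, and with total reads more members were higher than lower in each. Osteoblast and cartilage markers had 2 of 6 lower and 0 higher, a share called of 33.3%.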
